A study of Homo sapiens with 6 samples.

Results

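Cadherins and protocadherins are cell surface proteins whose extracellular domains bind calcium and hold neighbouring cells together. The genes described here are the protein-coding genes of the count and FPKM tables whose symbol is CDH with a number or begins with PCDH. By that rule 89 of the 60676 genes in the tables belonged to the family. They comprised 23 CDH genes, 13 protocadherin genes that lie alone in the genome (non-clustered) and 53 clustered protocadherin genes, of which 15 were PCDHA, 16 PCDHB and 22 PCDHG genes. RNA was sequenced from SK-N-BE, a neuroblastoma line of human origin that takes on neuronal traits in retinoic acid. All 6 libraries came from cells kept for 1.5 days in differentiation medium with 10 μM retinoic acid. In 3 of them the cells carried a scrambled control siRNA (si-SCR), and in the other 3 a siRNA pool (si-CyCoNP) against CyCoNP, a long noncoding RNA. The model is a single cell line with a transient knockdown, no library came from cells without siRNA, and the labels do not say whether replicates were separate cultures, so that p-values measure the spread between libraries, which may be technical.

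The count tables held between 3762009 and 4799407 fragments per library. LINC02381 (ENSG00000250742), the gene of CyCoNP, had 274, 208 and 315 counts in si-SCR against 20, 30 and 12 in si-CyCoNP, which gave a log2 fold change of -3.78 (standard error, SE, 0.190; edgeR quasi-likelihood test, adjusted p = 6.84e-14). The labelled cell type was checked against 9 markers of adrenergic neuroblastoma, all of which passed the expression filter. Their summed level lay between 2090 and 2250 FPKM (fragments per kilobase of transcript, scaled to the library total) in si-SCR and between 1890 and 2040 FPKM in si-CyCoNP. Against si-SCR, 1 of the 9 was called higher and 6 were called lower (edgeR, threshold 0.05 on the adjusted p). Among the 13966 genes tested, the same threshold called 14.2% higher and 14.2% lower. The markers were thus called lower more often than genes at large, and the cause was not tested.

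Classical cadherins join cells through adherens junctions, where their cytoplasmic tails bind catenins that link them to actin. Non-clustered protocadherins of the delta class are expressed in subsets of neurons and take part in cell sorting, axon growth and synapse formation, with signalling through the actin-regulating WAVE complex. Clustered protocadherins give neurons surface identities used in self-recognition. Each is read from a promoter of its own, and promoter choice depends on the insulator protein CTCF and on cohesin, which fold the cluster so that a promoter meets a distant enhancer. Transcripts of the PCDHA genes join a variable first exon to constant exons common to the whole cluster, and PCDHG transcripts do the same with constant exons of their own, whereas PCDHB genes have no constant exons.

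Many clustered promoters carry a short conserved element with the core CGCT. The windows below show it in capitals for the PCDHB genes that passed the test, for the 2 PCDHB genes with the smallest change, and for a few PCDHA and PCDHG genes, so that the element can be set beside the values that follow. They are 30-base stretches of RefSeq promoters (GRCh38.p14, chromosome 5, plus strand, written 5′ to 3′).
PCDHB2 (chr5:141094543-141094572): gaagagacgcggggTGGCGCTgcagcctta
PCDHB15 (chr5:141245313-141245342): aagacaacgcatggTGGCGCTgcaggctaa
PCDHB16 (chr5:141182309-141182338): gtgagaacgcgtggTGGCGCTgcaggttaa
PCDHB3 (chr5:141100392-141100421): aagcgaacgcatggTGGCGCTgttgactaa
PCDHB9 (chr5:141187073-141187102): tggaagccacaaggTGGCGCTgcagactga
PCDHA10 (chr5:140855840-140855869): ctaaagccaccggaTGTCGCTgtcgtccac
PCDHA11 (chr5:140868882-140868911): ttttaggcgcaaggTGTCGCTctttacttg
PCDHGA1 (chr5:141330402-141330431): gttaggactgtgggCGCCGCTgttcactaa
PCDHGA11 (chr5:141420971-141421000): gaatgggctctaggCGCCGCTgctcaccaa

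Promoters of 300 bases (250 before and 50 after the start) were at hand for 70 of the 89 genes. The 3 letter strings are the commonest 7-base strings ending in CGCT on the plus strand of each cluster, and the search was built after the promoters had been read. TGGCGCT was found in 13 of 14 PCDHB promoters, against 4.08% of all 35116 promoters searched on both strands. TGTCGCT was found in 10 of 13 PCDHA promoters and in 1.76% of all promoters, and CGCCGCT in 10 of 20 PCDHG promoters and in 9.45% of all. The core CGCT alone is common, with a match in 70.0% of all promoters. In PCDHB2, PCDHB15 and PCDHB16 the element ended 51, 61 and 57 bases before the start, and in PCDHB3 and PCDHB9, which did not pass the test, 60 and 67 bases before it. The element was therefore present in PCDHB promoters on both sides of the threshold. The promoter window of PCDHGC3 did not hold the 7-base string of its cluster.

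Family members were more often higher than lower after depletion of CyCoNP. A gene was tested where its mean FPKM was at least 1 in either group, which 52 of the 89 members reached among 13966 genes in all. Of these 52, 11 were higher in si-CyCoNP (21.2%) and 1 was lower (1.92%) at an adjusted p under 0.05, and 40 did not pass. Over all genes tested, 14.2% were higher and 14.2% were lower by the same rule. With a log2 fold change beyond 1 required as well, 1 member was called higher (PCDH10) and none lower, against 2.28% and 2.98% of all genes. The si-CyCoNP libraries lay wholly above the si-SCR libraries for 16 members (30.8%) and wholly below for 1 (1.92%), where all genes gave 20.1% and 20.0%. The median log2 fold change of the 52 was 0.28, and 42 of them had a positive value. Over all 13966 genes tested the median was 0.005, and 7065 had a positive value. Both values of the members rested in part on single libraries. They were a median of 0.177 and 34 positive values without si-CyCoNP replicate 2, and 37 positive values without si-SCR replicate 3. PCDHB13, PCDHGB4, PCDHGB5 and PCDHGA12 reached the filter through the si-CyCoNP mean alone, which favours a positive value, and none of these 4 passed the test. Without them 38 of 48 were positive, with a median of 0.28. In RNA from whole cultures, a change in the number of cells that express a gene and a change in its RNA per cell cannot be told apart. The count of 11 was 7 with DESeq2, which did not call CDH24, CDH10, PCDHGA1 and PCDHGA11 (DESeq2 adjusted p = 0.0983, 0.0831, 0.0846 and 0.13), and 7 with limma on log2(FPKM + 0.1), and 7 to 10 when 1 library was left out. It was lowest, at 7, when si-CyCoNP replicate 1 or replicate 2 was left out. PCDH10, PCDH9, PCDH18, PCDHB2 and PCDHB15 passed in each of the 15 alternative fits.

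Among the classical cadherins, CDH2 (N-cadherin, the main cadherin of neural and neural crest cells) had the highest deposited FPKM of the family and did not pass the test. It lies on chromosome 18 from 27932879 to 28177946 (GRCh38, minus strand). Its level was 48.0, 44.5 and 35.8 FPKM in the si-SCR libraries and 42.4, 44.2 and 39.6 FPKM in the si-CyCoNP libraries. The groups overlapped, with means of 42.8 ± 6.29 and 42.1 ± 2.32 FPKM (SD, n = 3) and a log2 fold change of -0.09 (SE 0.0985, edgeR adjusted p = 0.528). The change became 0.02 when si-SCR replicate 1 was left out and -0.23 when si-SCR replicate 3 was left out (edgeR adjusted p = 0.0348 for the latter), so that the direction and the call both rested on the si-SCR libraries. The other type I genes were under the filter, and CDH1 (E-cadherin, the epithelial cadherin) had no count in any library.

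Of the 13 type II cadherins, 3 were tested and 2 passed, both higher (66.7%, against 14.2% of all genes tested). CDH24 (chr14:23047062-23057538) had 10.7, 11.6 and 12.4 FPKM in si-SCR against 15.1, 15.1 and 14.9 FPKM in si-CyCoNP, without overlap. Its log2 fold change was 0.31 (SE 0.111, edgeR adjusted p = 0.034). The call was lost without any 1 of the si-CyCoNP replicates or of si-SCR replicates 1 and 2, with edgeR adjusted p-values from 0.0731 to 0.118, and with no filter (edgeR adjusted p = 0.0641). CDH10 (chr5:24487100-24644978), a cadherin of neurons, had 49, 22 and 28 counts in si-SCR against 52, 72 and 54 in si-CyCoNP. On the FPKM scale 1 si-SCR library, at 3.12, lay above the lowest si-CyCoNP library, at 2.96. The log2 fold change of CDH10 was 0.74 (SE 0.260, edgeR adjusted p = 0.0328), and it did not pass without si-CyCoNP replicate 2 (edgeR adjusted p = 0.188), si-SCR replicate 2 (0.119) or si-SCR replicate 3 (0.0944). Without si-SCR replicate 1, its highest si-SCR library, the change was 1.15, and neither limma fit called it (limma adjusted p = 0.101 and 0.102). CDH11 (chr16:64943753-65126112), found in mesenchymal and neural crest cells, ranged from 1.63 to 3.02 FPKM in si-SCR and from 1.27 to 2.96 FPKM in si-CyCoNP. Its log2 fold change of -0.40 (SE 0.215, edgeR adjusted p = 0.183) did not pass with all libraries. It passed without si-CyCoNP replicate 2 (-0.77, edgeR adjusted p = 0.0106) or without si-SCR replicate 1 (-0.62, edgeR adjusted p = 0.0085), and shrank without si-CyCoNP replicate 1 (-0.14, edgeR adjusted p = 0.66), si-SCR replicate 3 (-0.25) or si-SCR replicate 2 (-0.28). The summed level of the 23 CDH genes was 304 ± 25.4 CPM (counts scaled to the library total) in si-SCR and 301 ± 22.3 in si-CyCoNP (SD, n = 3, with the TMM factors of edgeR).

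Of the 13 non-clustered protocadherins 7 were tested. Among these, 3 rose (42.9%) and 1 fell (14.3%), where 14.2% of all genes tested were higher and 14.2% lower. The share that fell was thus near that of all genes. The largest change among the tested members of the family was in PCDH10. PCDH10 (chr4:133149294-133208606, plus strand), a delta-2 protocadherin of axon outgrowth that recruits the WAVE complex, had 85, 94 and 83 counts in si-SCR against 239, 284 and 288 counts in si-CyCoNP. Every si-CyCoNP library was above every si-SCR library by a wide margin. Mean levels were 2.03 ± 0.383 and 6.09 ± 1.05 FPKM (SD, n = 3), a 2.87-fold increase with a log2 fold change of 1.52 (SE 0.151, edgeR adjusted p = 1.31e-08). Over the 15 alternatives the change ranged from 1.22 to 1.68.

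PCDH9 (chr13:66302834-67230445, minus strand), a delta-1 protocadherin expressed in brain, was the most deeply counted of the genes that passed. It had 810, 533 and 901 counts in si-SCR against 1617, 1216 and 1315 counts in si-CyCoNP. Its level rose from 5.59 ± 0.873 to 10.1 ± 0.827 FPKM (SD, n = 3), 1.73-fold (log2 fold change 0.79, SE 0.0973, edgeR adjusted p = 4.46e-07). PCDH18 (chr4:137518918-137532494, minus strand), a further delta-2 gene, had 183, 96 and 163 counts in si-SCR against 326, 246 and 246 in si-CyCoNP. The groups did not overlap. Means were 5.10 ± 1.28 and 9.23 ± 0.811 FPKM (SD, n = 3), and the log2 fold change of PCDH18 was 0.78 (SE 0.140, edgeR adjusted p = 8.85e-05).

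PCDH1 (chr5:141853090-141879246) was the member that fell. It had 12.0, 11.3 and 10.2 FPKM in si-SCR against 10.0, 8.97 and 8.66 FPKM in si-CyCoNP, so that the lowest si-SCR and the highest si-CyCoNP library were close. The log2 fold change was -0.34 (SE 0.111, edgeR adjusted p = 0.0214). The call was lost without si-CyCoNP replicate 2 or 3 or si-SCR replicate 1 or 2, with edgeR adjusted p-values from 0.0626 to 0.111. DESeq2, both limma fits and scaling by library totals alone did not call it either.

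The other tested delta genes did not pass. PCDH17 (chr13:57631744-57729311), a delta-2 gene that acts at synapses, had 5.33, 3.58 and 3.91 FPKM in si-SCR against 5.36, 6.87 and 4.83 FPKM in si-CyCoNP. Its log2 fold change was 0.34 (SE 0.148, edgeR adjusted p = 0.0892). It passed without si-CyCoNP replicate 3 (0.43, edgeR adjusted p = 0.0416) or without si-SCR replicate 1 (0.54, edgeR adjusted p = 0.00442), and shrank without si-CyCoNP replicate 2 (0.19, edgeR adjusted p = 0.445), si-SCR replicate 2 (0.24) or si-SCR replicate 3 (0.25). PCDH19 (chrX:100291644-100410273), known from an X-linked epilepsy, had 1.31, 0.981 and 0.836 FPKM in si-SCR against 1.84, 1.28 and 1.11 FPKM in si-CyCoNP. The groups overlapped (log2 fold change 0.38, SE 0.232, edgeR adjusted p = 0.249). Single libraries moved this value, to 0.13 when si-CyCoNP replicate 1 was left out, 0.21 when it was si-SCR replicate 3 and 0.60 when it was si-SCR replicate 1, and it passed in none of these fits. PCDH7 (chr4:30720369-31146805), a delta-1 gene, had 6.52, 6.18 and 4.75 FPKM against 6.62, 5.82 and 4.86 FPKM. Its log2 fold change of -0.07 (SE 0.125, edgeR adjusted p = 0.709) took a positive value without si-SCR replicate 1 (0.04) or si-CyCoNP replicate 3 (0.02). Summed over the 13 non-clustered protocadherins, the level was 489, 395 and 408 CPM in si-SCR against 654, 595 and 610 in si-CyCoNP, a log2 difference of 0.53 without overlap (exact permutation test, two-sided, p = 0.1, the smallest that 3 libraries against 3 can give). Of the mean sums of 431 and 619 CPM, PCDH9 alone made up 178 and 309, while PCDH1 and PCDH7 had lower means in si-CyCoNP. The sum thus mostly repeats the change of PCDH9 and does not show a rise of the class.

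**Figure D1:**
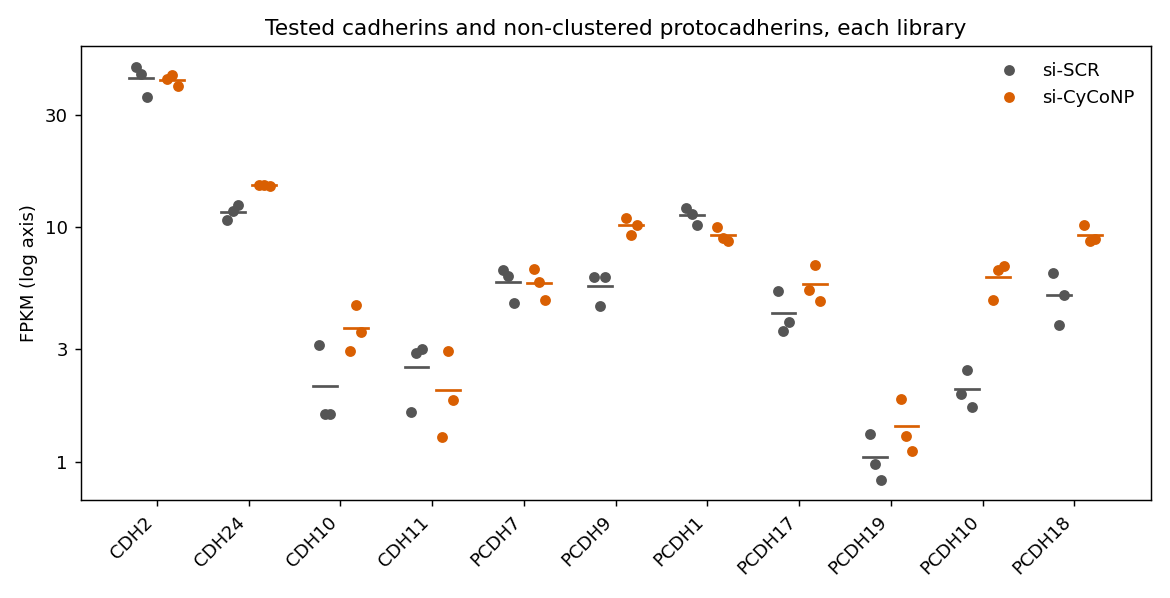
Level in FPKM (log axis) of the 11 tested genes outside the clusters, with 1 point per library and a bar at the mean of the 3 libraries of each group. The si-SCR and si-CyCoNP points are apart for PCDH10, PCDH9, PCDH18 and CDH24, and overlap for CDH2 at about 42.8 and 42.1 FPKM and for PCDH7.

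The clustered protocadherins lie side by side on the plus strand of chromosome 5, with the PCDHA genes from 140786136 to 141012347, the PCDHB genes from 141051374 to 141249365 and the PCDHG genes from 141330514 to 141512977 (GRCh38). In PCDHB, 3 of 14 tested genes were higher (21.4%, against 14.2% of all genes), all 14 had a positive log2 fold change and the median was 0.48. The 13 other than PCDHB13, which reached the filter through si-CyCoNP alone, were positive too, and leaving out 1 library gave 12 (without si-SCR replicate 3) to 14 positive values. In PCDHG, 3 of 18 were higher (16.7%, near the 14.2% of all genes), 16 were positive and the median was 0.19. Of the 15 PCDHG genes at 1 FPKM or more in both groups, 13 were positive, with a median of 0.18. The PCDHG values depended on the fit, with 11 positive and a median of 0.082 without si-CyCoNP replicate 2. Without si-SCR replicate 1, 13 were positive, and without si-SCR replicate 3, 14 were. All 18 were positive under library totals alone or limma, but those fits shifted all genes upward. Their median over all genes tested was 0.062 to 0.074, against 0.005 in the main fit, where 7065 of 13966 genes were positive. In PCDHA, none of 9 passed, 5 were positive and the median was 0.03, where all genes tested had a median of 0.005. Leaving out 1 library moved the PCDHA median to values between -0.108, with si-CyCoNP replicate 2 left out, and 0.233, with replicate 3 of that group left out.

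PCDHB2 (chr5:141094606-141098703) had the largest change of the clustered genes. It had 80, 62 and 89 counts in si-SCR against 180, 135 and 168 in si-CyCoNP, or 4.37 ± 0.301 and 8.93 ± 1.08 FPKM (SD, n = 3). The groups were well apart (log2 fold change 0.96, SE 0.149, edgeR adjusted p = 1.38e-05). Exons of the antisense gene PCDHB1-AS1 cover 43.9% of its exon bases, and that gene had between 0 and 2 counts per library (whether the counting used strand is not given in the sources used here). PCDHB15 (chr5:141245395-141249365), the last gene of the cluster, had 37, 30 and 41 counts in si-SCR against 63, 86 and 73 in si-CyCoNP. It rose from 2.11 ± 0.0902 to 4.28 ± 0.905 FPKM (SD, n = 3), and its log2 fold change was 0.94 (SE 0.214, edgeR adjusted p = 0.00133). PCDHB16 (chr5:141182387-141186226) was the most abundant gene of the cluster, with 8.57, 9.99 and 6.52 FPKM in si-SCR against 14.0, 11.1 and 12.0 FPKM in si-CyCoNP. Its log2 fold change was 0.51 (SE 0.137, edgeR adjusted p = 0.00584), and without si-CyCoNP replicate 1 it was 0.40 and stood at the threshold (edgeR adjusted p = 0.05). Without si-SCR replicate 3 it was 0.33 and still passed (edgeR adjusted p = 0.0315), and limma did not call it on log2(FPKM + 0.1) or log2(FPKM + 1) (limma adjusted p = 0.059 and 0.0581). An antisense gene with no count in any library covers 21.2% of its exon bases.

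The other 11 tested PCDHB genes had log2 fold changes between 0.04 (PCDHB9) and 0.64 (PCDHB6), and none passed. Of these, PCDHB7 and PCDHB14 had groups that did not overlap, with log2 fold changes of 0.61 and 0.54 (edgeR adjusted p = 0.063 and 0.0724). Most were thinly counted, as PCDHB7 shows with 30, 18 and 35 counts in si-SCR against 49, 46 and 41 in si-CyCoNP. PCDHB genes resemble each other, and unique counting loses fragments that map to more than 1 gene. The share of 100-base windows that a PCDHB transcript has in common with another PCDHB gene or pseudogene ranged from 0 in PCDHB1 to 25.6% in PCDHB8. It was 11.5% in PCDHB2, 5.68% in PCDHB15 and 8.53% in PCDHB16. The cluster sum was 158, 158 and 145 CPM in si-SCR against 230, 218 and 213 in si-CyCoNP, a 1.43-fold increase (log2 difference 0.52) without overlap (exact permutation test, two-sided, p = 0.1, the smallest possible). Of the mean sums of 154 and 220 CPM, PCDHB16 made up 43.3 and 60.9, PCDHB2 18.5 and 36.1, and PCDHB15 8.65 and 16.7. Most of the rise in the sum thus repeats the change of these genes, which passed the test.

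PCDHA genes showed no call in either direction. Their log2 fold changes ran from -0.38 (PCDHA8, edgeR adjusted p = 0.347) to 0.31 (PCDHA3, edgeR adjusted p = 0.328). The groups did not overlap for PCDHA11, which had 108, 92 and 153 counts in si-SCR against 178, 142 and 143 in si-CyCoNP (log2 fold change 0.29, edgeR adjusted p = 0.118). PCDHAC1, 1 of the 2 C-type genes at the end of the cluster, had the highest si-SCR level of the cluster with 5.39 ± 0.262 FPKM, and 5.36 ± 0.477 FPKM in si-CyCoNP (SD, n = 3). The sum of the cluster was 220, 213 and 206 CPM in si-SCR against 231, 222 and 186 in si-CyCoNP (213 ± 7.21 and 213 ± 23.6, SD, n = 3). The groups overlapped (exact permutation test, two-sided, p = 1), and the sign of the difference, at -0.00 on the log2 scale, depended on the scaling (0.06 by library totals alone, 0.09 for summed FPKM). Exon bases that no other gene on the same strand shares made up 43.4% to 78.6% of a PCDHA gene.

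PCDHG genes share their constant exons likewise, and their unshared part was 35.6% to 72.5% of the exon bases. The deposited FPKM values of both clusters divide by the whole exon length, so that they understate the level of these genes beside genes with no shared exons. PCDHGC3 (chr5:141475947-141512977), a C-type gene, was the most abundant clustered gene, with 12.8, 13.2 and 12.4 FPKM in si-SCR against 18.2, 16.7 and 16.1 FPKM in si-CyCoNP. Per kilobase of unshared exon (GENCODE v44) it reached 22.1 CPM in si-SCR and 27.9 in si-CyCoNP, where CDH2 had 23.9 and 22.4. CDH2 shares no exon bases, but its GENCODE v44 length of 8583 bases exceeds the 4634 bases implied by its deposited FPKM. The order of these 2 genes thus depends on the length used for CDH2 as well as on the shared PCDHG exons. The log2 fold change of PCDHGC3 was 0.34 (SE 0.0979, edgeR adjusted p = 0.00899), and without si-CyCoNP replicate 1 it was 0.29 and did not pass (edgeR adjusted p = 0.071).

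Both other PCDHG genes that rose were less abundant. PCDHGA1 (chr5:141330514-141512975), the first gene of the cluster, had 67, 55 and 60 counts in si-SCR against 91, 102 and 89 in si-CyCoNP (log2 fold change 0.52, SE 0.177, edgeR adjusted p = 0.0265). It did not pass without si-CyCoNP replicate 2 (edgeR adjusted p = 0.121), si-CyCoNP replicate 3 (0.0647) or si-SCR replicate 3 (0.108). PCDHGA11 (chr5:141421047-141512975) had 28 counts in each si-SCR library and 46, 50 and 46 in si-CyCoNP. Its log2 fold change was 0.65 (SE 0.240, edgeR adjusted p = 0.044), and the call was lost without any 1 library other than si-SCR replicate 2, with edgeR adjusted p-values from 0.051 to 0.137, and also with no filter and with both limma fits. PCDHGB5, at 0.70, had a larger log2 fold change that did not pass (edgeR adjusted p = 0.0583). The PCDHG sum was 337, 363 and 336 CPM in si-SCR against 411, 448 and 355 in si-CyCoNP, which overlapped at 363 and 355 (log2 difference 0.22, exact permutation test, two-sided, p = 0.2).

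**Figure D2:**
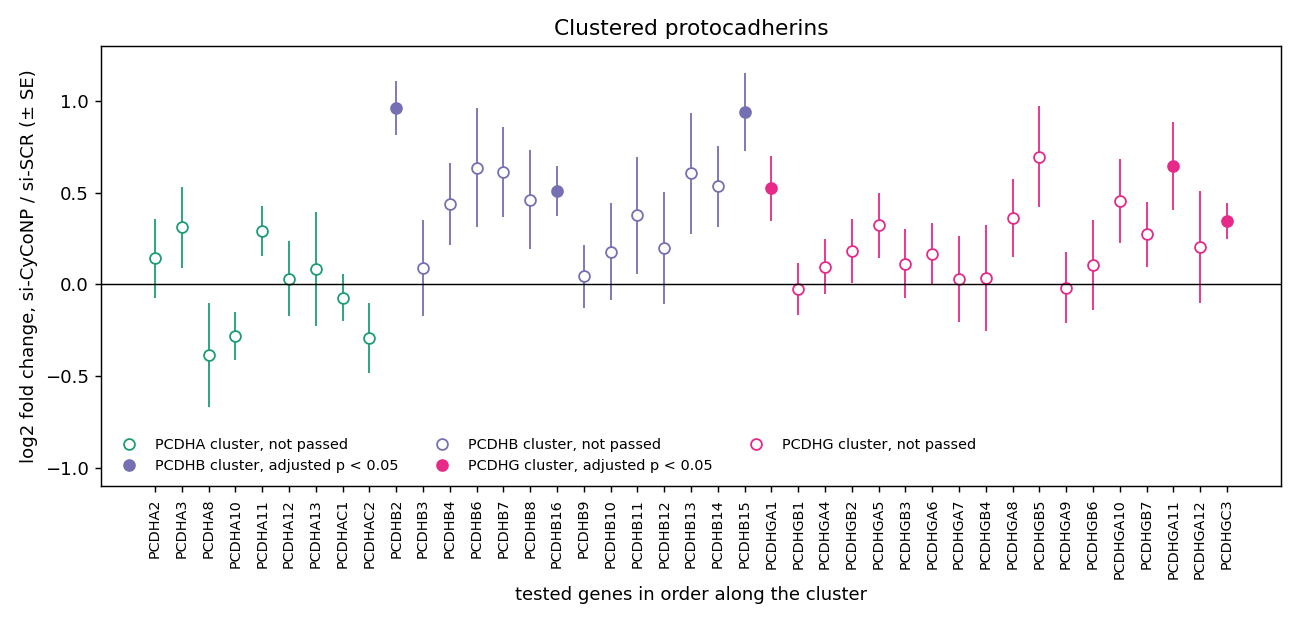
Log2 fold change (si-CyCoNP over si-SCR, with bars of 1 SE from the edgeR fit) of the 41 tested clustered protocadherins in their order along each cluster, with filled points for an adjusted p under 0.05. All 14 PCDHB points lie above 0, with PCDHB2 at 0.96 and PCDHB15 at 0.94, while PCDHA points lie on both sides of 0.

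**Figure D3:**
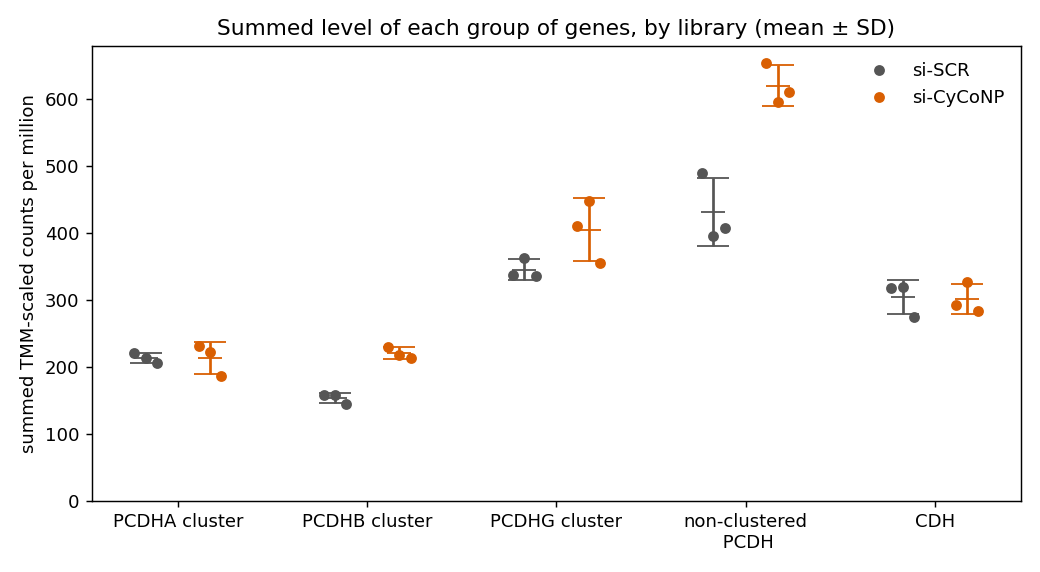
Summed TMM-scaled CPM of each gene group, with 1 point per library and the mean ± SD of 3 libraries. The groups are apart for the PCDHB cluster (at most 158 in si-SCR, at least 213 in si-CyCoNP) and for non-clustered protocadherins (at most 489 and at least 595), and overlap for PCDHA, PCDHG and CDH genes.

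The remaining 37 members were under the filter, with a mean of at most 0.986 FPKM in either group. Of these, 7 had no count in any library, 13 had between 1 and 9 counts in their highest library, and 17 had 10 or more in a library. Those 17 were CDH4, CDH6, CDH12, CDH23, PCDH12, PCDH15, PCDHA1, PCDHA4, PCDHA5, PCDHA6, PCDHA7, PCDHA9, PCDHB5, PCDHGA2, PCDHGA3, PCDHGC4 and PCDHGC5. PCDHA4 was the most deeply counted of them, with 45, 30 and 45 counts in si-SCR against 72, 53 and 51 in si-CyCoNP. CDH4 (R-cadherin, a type I cadherin of the retina and brain) had 16, 29 and 22 counts in si-SCR against 8, 18 and 11 in si-CyCoNP. These genes were left untested by the FPKM filter. Among the tested members 19 had a mean under 50 counts per library.

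The genes that work with cadherins were then described in 6 lists, to be read against the 14.2% higher and 14.2% lower of all genes tested. Catenins and junction adaptors, which tie cadherin tails to actin, held 1 gene higher and 5 lower among 10 tested, with a median log2 fold change of -0.33. CTNND1, 1 of the 5 lower, reached the filter through si-SCR alone (1.15 and 0.603 FPKM), and the median of the other 9 was -0.25. CTNNA2 (neuronal alpha-catenin) had 834, 833 and 815 counts in si-SCR against 368, 326 and 397 in si-CyCoNP. Every si-CyCoNP library was thus below every si-SCR library, and the log2 fold change was -1.30 (SE 0.108, edgeR adjusted p = 5.88e-10). ARVCF, a catenin of the p120 family, fell from 19.4 ± 0.932 to 9.09 ± 0.824 FPKM (SD, n = 3), and its log2 fold change was -1.16 (edgeR adjusted p = 1.51e-09). CTNNB1 (beta-catenin, which also carries Wnt signals) fell from 23.4 ± 1.49 to 14.2 ± 0.504 FPKM (SD, n = 3), and its log2 fold change was -0.79 (edgeR adjusted p = 5.08e-08). These 3 passed in all 15 alternatives, while CDH2, the cadherin at the highest level, had the means of 42.8 and 42.1 FPKM given above.

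Proteases that cut cadherins at the surface or within the membrane held 2 higher and 5 lower of 13 tested (median -0.32). MMP24, a membrane-bound matrix metalloproteinase that cleaves N-cadherin, had 126, 112 and 154 counts in si-SCR against 531, 432 and 488 in si-CyCoNP (log2 fold change 1.78, SE 0.109, edgeR adjusted p = 2.29e-12). ADAM17, a sheddase, and MMP15, a further membrane-bound metalloproteinase, fell by 0.70 and 1.03 on the log2 scale (edgeR adjusted p = 6.47e-06 and 0.000207). APH1B reached the filter through si-SCR alone. The list thus held members that moved in opposite directions.

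Chromatin factors known to act at the clustered protocadherins held 3 higher and 2 lower of 18 tested (median -0.01), shares near those of all genes. SMC1A, a core subunit of cohesin, had 621, 511 and 894 counts in si-SCR against 1082, 1045 and 1007 in si-CyCoNP (log2 fold change 0.54, SE 0.0948, edgeR adjusted p = 6.86e-05). STAG2, which binds the cohesin ring, fell by 0.43 (edgeR adjusted p = 0.000445). DNMT3A, which sets new DNA methylation, fell by 0.32 (edgeR adjusted p = 0.00786), and it did not pass without si-CyCoNP replicate 3 (edgeR adjusted p = 0.0649) or without si-SCR replicate 1 (0.0532). Outside the naming rule, and seen after their values were known, the other genes of the list that passed were CTCF and SMC3. CTCF had 8.82, 8.63 and 9.19 FPKM in si-SCR against 11.2, 11.3 and 11.3 FPKM in si-CyCoNP, without overlap, and the log2 fold change was 0.28 (SE 0.0894, edgeR adjusted p = 0.0213). It lost the call with DESeq2, without si-SCR replicate 2 and without any 1 si-CyCoNP replicate, where the largest edgeR adjusted p was 0.0743. SMC3, a core subunit of cohesin like SMC1A, rose by 0.28 on the log2 scale (edgeR adjusted p = 0.0121) and lost the call without si-CyCoNP replicate 3 (edgeR adjusted p = 0.0523). The cohesin subunits that passed thus moved in both directions, and the other 13 genes of the list did not pass.

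Protocadherin effectors and subunits of the WAVE complex held 3 higher and 4 lower of 15 tested (median -0.08). CYFIP2, a WAVE subunit, had 71, 85 and 102 counts in si-SCR against 43, 34 and 35 in si-CyCoNP (log2 fold change -1.31, edgeR adjusted p = 1.02e-05). It reached the filter through si-SCR alone, the group where it was high (1.92 and 0.807 FPKM). PPP1CA, a catalytic subunit of protein phosphatase, fell by 0.89 (edgeR adjusted p = 1.21e-08), and PTK2 (focal adhesion kinase) rose by 0.58 (edgeR adjusted p = 7.19e-06). Other genes of the cadherin superfamily held 2 higher and 3 lower of 9 tested (median -0.01). FAT2, a giant cadherin, had 9, 11 and 13 counts in si-SCR against 71, 70 and 64 in si-CyCoNP (log2 fold change 2.52, SE 0.266, edgeR adjusted p = 3.64e-08). It reached the filter through si-CyCoNP alone (0.177 and 1.07 FPKM), and the median of the other 8 was -0.11. With limma on log2(FPKM + 1), where low values are drawn together, its change was 0.81 (limma adjusted p = 0.065). RET, a receptor tyrosine kinase with cadherin-like domains, and CLSTN3, a calsyntenin, fell by 0.59 and 0.78 (edgeR adjusted p = 7.23e-06 and 0.000186).

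Transcription factors that repress classical cadherins held 2 higher and 3 lower of 7 tested (median -0.04). SNAI1 had 53, 36 and 39 counts in si-SCR against 112, 81 and 97 in si-CyCoNP (log2 fold change 1.07, SE 0.197, edgeR adjusted p = 0.000139). SNAI2, its paralog, had 94, 73 and 136 counts against 56, 37 and 41 (log2 fold change -1.27, SE 0.192, edgeR adjusted p = 9.76e-06). TCF3, an E protein, rose by 0.84 (edgeR adjusted p = 8.68e-08). Over the 6 lists 13 genes were higher and 22 lower, where 14.2% of all genes tested were higher and 14.2% lower. The genes tested numbered 10, 13, 18, 15, 9 and 7, in the order of the lists above. Leaving out 1 library gave 10 to 15 higher and 17 to 25 lower. Limma gave 11 higher on log2(FPKM + 0.1) and 10 on log2(FPKM + 1), with 13 lower in each.

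**Figure D4:**
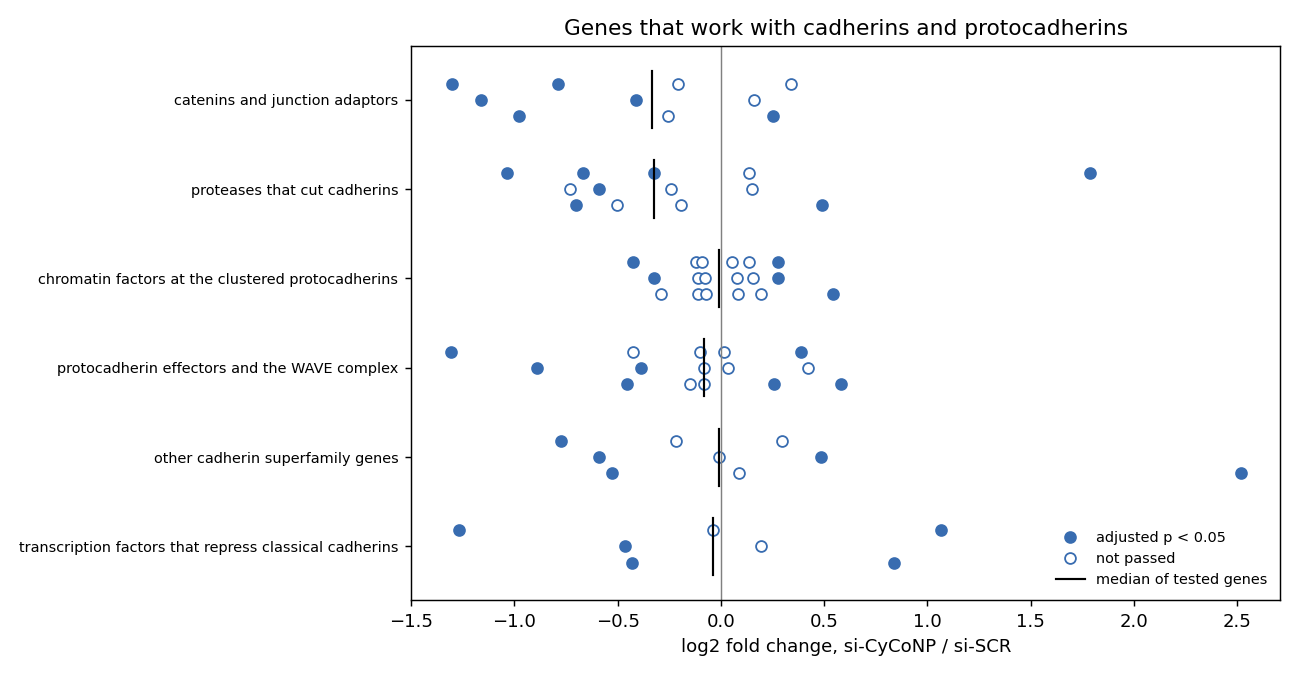
Log2 fold change (si-CyCoNP over si-SCR) of each tested gene in the 6 lists, with filled points for an adjusted p under 0.05 and a line at the median of each list. The medians of catenins (-0.33) and proteases (-0.32) lie below 0 and those of the other lists between -0.08 and -0.01, with MMP24 and FAT2 far to the right.

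Markers of other cell types were examined because cadherins differ between cell types. The epithelial markers summed to between 1.86 and 3.05 FPKM in every library, of which KRT19, which did not pass, had 1.41 ± 0.667 FPKM in si-SCR against 1.05 ± 0.407 FPKM in si-CyCoNP (SD, n = 3). EPCAM and CLDN4 also had counts in every library. The endothelial markers summed to at most 0.103 FPKM and the blood markers to at most 0.0513 FPKM in any library, and CDH1, PECAM1, KDR, TEK, CD3E and HBB had no count. Of 6 mesenchymal or Schwann cell markers, SOX10 and PRRX1 had no count in any library. COL1A1, a collagen, rose from 0.450 ± 0.108 to 1.50 ± 0.230 FPKM (SD, n = 3; edgeR adjusted p = 8.59e-06), and it reached the filter through si-CyCoNP alone. The summed level of that list lay between 42.6 and 59.0 FPKM in si-SCR and between 56.5 and 67.5 FPKM in si-CyCoNP, most of it from TWIST1 (48.0 ± 7.04 and 49.0 ± 2.65 FPKM, SD, n = 3). Of the markers of the labelled cell type, MYCN rose by 0.84 on the log2 scale (edgeR adjusted p = 2.65e-09). The part of these changes in the protocadherin values was not tested.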

How the data were processed

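Illumina stranded total RNA libraries were made from ribosome-depleted RNA and sequenced as paired ends. Per the labels and the study's methods, reads were trimmed with Trimmomatic 0.39 and Cutadapt 3.2, ribosomal reads were removed with Bowtie2 2.4.2, and the rest were aligned to GRCh38 with STAR 2.7.7a. The deposited counts are raw gene counts of uniquely mapped fragments, made by the authors with STAR, which drops fragments in exons shared by genes on the same strand. The deposited FPKM values were scaled by the authors to gene length and library total. Which strand setting of the counting was used is not given in the sources used here. Library totals from 3762009 to 4799407 counts limit the precision for low genes, and counting error is part of the spread between replicates.

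Genes were joined by Ensembl ID to GENCODE v44. The 89 members, the subfamilies, the marker genes and the 6 lists were chosen with earlier results of these data known. The 13966 genes whose mean FPKM reached 1 in either group were compared between 3 si-CyCoNP and 3 si-SCR libraries by quasi-likelihood in edgeR 4.0.16 (R 4.3.3, TMM scaling, no covariate). Benjamini-Hochberg adjustment covered all genes tested, and a gene passed at an adjusted p under 0.05. Summed levels were compared with exact permutation tests, which with 3 against 3 cannot go below 0.1. Named were all tested members outside the clusters, clustered members that passed, members under the filter with 10 or more counts in a library, and from each list up to 3 passed genes with the smallest p. Other clustered genes, CTCF, SMC3 and the marker genes were named after their values had been seen. Some marker genes are not reported here and enter only the list summaries. The script was tested on simulated counts. The alternatives were DESeq2 1.42.0, other scalings and filters, limma 3.58.1 on log2(FPKM + 0.1) and log2(FPKM + 1), the replicate number as a block, and leaving out each library. The study's methods name an earlier version of DESeq2, and a supplementary legend names a likelihood ratio test of edgeR.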

Additional observations from a re-analysis of the deposited data

Results flagged for a closer look

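Below the expression filter, 4 genes of the family or beside it passed the test in the fit with no filter, by a rule written after the values had been seen. CDH23, a cadherin of hair cell links, had 3, 7 and 7 counts in si-SCR against 30, 17 and 9 in si-CyCoNP, 56 in all against 17 (log2 fold change 1.58, SE 0.45, edgeR adjusted p = 0.00472). PCDHA1, the first gene of the PCDHA cluster, had 4, 3 and 4 counts against 19, 10 and 15, which sum to 44 against 11 (log2 fold change 1.86, SE 0.54, edgeR adjusted p = 0.00576). Exons of an antisense gene cover 48.6% of the exon bases of PCDHA1. That gene had 3 to 11 counts per library, and whether the counting used strand is not given in the sources used here. PCDH10-DT, a noncoding transcript named for its place beside PCDH10, had 5, 5 and 9 counts against 24, 16 and 14, 54 against 19 (log2 fold change 1.39, SE 0.443, edgeR adjusted p = 0.0151). CDH7 had 15 counts in si-CyCoNP against 1 in si-SCR (edgeR adjusted p = 0.0373), and its si-SCR libraries were all at or under 3 counts, so no fold is given.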

How the results depend on the processing

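The count of 11 members higher became 7 with DESeq2 and with limma on log2(FPKM + 0.1), and all 7 were among the 11 in both. Leaving out 1 library gave 7 to 10. The count of 1 member lower became 0 with DESeq2, with library totals alone and with both limma fits, 3 with the replicate block, and 0 to 3 when a library was left out. Members called higher beyond a log2 fold change of 1 numbered 1, against 2 with the default filter of edgeR and with limma on log2(FPKM + 0.1), 3 with library totals alone, 4 with no filter and 1 to 3 without 1 library. With no filter, members of low count enter the test. List genes lower numbered 22, and 13 with each limma fit. The PCDHA sum (-0.00) changed sign with library totals alone (0.06) and with summed FPKM (0.09), and ran from -0.07 to 0.09 without 1 library. Leaving out 1 library moved CDH2 from -0.23 to 0.02 and PCDH7 from -0.22 to 0.04, with CDH2 above 0 (0.02) when si-SCR replicate 1 was left out and PCDH7 above 0 when si-CyCoNP replicate 3 (0.02) or si-SCR replicate 1 (0.04) was. Apart from the settings whose construction explains the change, the cause was not tested. Of 255 values for the named members under alternatives, 205 kept direction and side of the threshold, 39 lost the call, 8 gained it and 3 reversed. Of 270 for the list genes, 265 were kept and 5 lost the call. The depletion of LINC02381 passed in every alternative, from -4.16 to -3.55 without 1 library. Samples of the same number correlated with 0.094, 0.075 and 0.109 in their deviations from the group means, each best with its own number. Samples of different numbers gave negative values, from -0.068 to -0.025. Deviations were taken from the group means, so positive values for same-numbered samples in part fix the negative sign of the others. The same-number values were small and the labels do not state pairs, so the main fit did not take the numbers as pairs. Whether same-numbered samples shared a batch was not tested. With the replicate block 15 members were higher, the 11 among them, and 3 lower.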
